A study of Homo sapiens with 6 samples.

Results

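The genes described here are the tetraspanins, 33 protein-coding genes among the 58735 genes measured by RNA sequencing in HGC-27 cells. They were chosen by name (the numbered TSPAN genes, CD9, CD37, CD53, CD63, CD81, CD82, CD151, UPK1A, UPK1B, PRPH2 and ROM1), with earlier results of these data known. HGC-27 is an established line of undifferentiated human gastric carcinoma, and both groups are labelled wild type. One group carried pSIH-H1-Puro-shACAT2, a vector for a short hairpin RNA against ACAT2 (acetyl-CoA acetyltransferase 2), and the control group carried pSIH-H1-Puro-shNC. Cells of both groups were exposed to the vector for 24 h and then kept in puromycin for 7 days, and 3 libraries of total RNA were sequenced per group. The labels do not say which hairpin the shACAT2 cells carried, nor whether the 3 libraries of a group came from separate cultures, so p-values measure only the spread between libraries.

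Tetraspanins are small proteins that cross the membrane repeatedly and gather integrins, proteases, receptors and one another into membrane microdomains. Through these partners they act on adhesion, migration, receptor shedding and the loading of extracellular vesicles, and CD9, CD63 and CD81 are widely used as vesicle markers. Some members are general (CD63, CD81, CD151), while others belong to particular cells, such as CD37 and CD53 to leukocytes, the uroplakins UPK1A and UPK1B to urothelium, PRPH2 and ROM1 to photoreceptors and TSPAN8 to digestive epithelium.

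Expression was given as FPKM, the number of fragments on a gene divided by its length and by a scaling value of the library. The libraries held 14086416 to 16067486 fragments on genes. A gene entered the test if the mean of shNC or that of shACAT2 reached 1 FPKM, which 13832 genes did. They were compared between the groups with limma on log2(FPKM + 1), and a gene was called changed at a limma adjusted p below 0.05. On this scale the change of a weakly expressed gene comes out too small. The targeted gene ACAT2 fell from 12.9 ± 1.25 FPKM (SD, n = 3) in shNC to 5.90 ± 0.388 FPKM (SD, n = 3) in shACAT2, with no overlap (log2 fold change −1.01, SE 0.10, limma adjusted p = 0.00594). The library shACAT2-3 stood apart in having fragments on 36466 genes, against 25337 to 27196 in the others. Gastric and epithelial markers were at or near 0 although the source is labelled stomach. TFF1 and GKN1 were listed at 0 in every library, EPCAM reached at most 0.212 FPKM, and only CDH1 of the 10 markers reached 1 FPKM (0.120 to 0.222 FPKM in shNC and 0.608 to 1.15 FPKM in shACAT2).

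Of the 33 tetraspanin genes, 19 reached 1 FPKM in a group mean, in each case in both groups, and 14 did not and were not tested. In shACAT2 cells TSPAN12 and CD9 rose and CD37 fell, and the other 16 did not pass the test. TSPAN12, a co-receptor of the Norrin and FZD4 pathway, rose to 2.56 times its shNC mean FPKM, CD9 rose to 1.93 times, and the leukocyte gene CD37 fell to 0.493 of its shNC mean. Of all genes tested 5.10% were called, and of the members 3 of 19. By direction, 2 of 19 members were called higher, where 3.30% of all genes tested were, and 1 of 19 was called lower, where 1.81% were. An unadjusted limma p below 0.05 was found for 5 of the 19 members and for 23.5% of all genes tested. Signs were positive in 14 members and negative in 5, and the median log2 fold change was 0.24 over the members and 0.02 over all genes tested. With a log2 fold change beyond 1 and an unadjusted p below 0.05 as the call, which 1.50% of all genes met, TSPAN12 alone was counted. In bulk RNA, fewer cells of a type and less RNA per cell cannot be told apart.

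**Figure D1:**
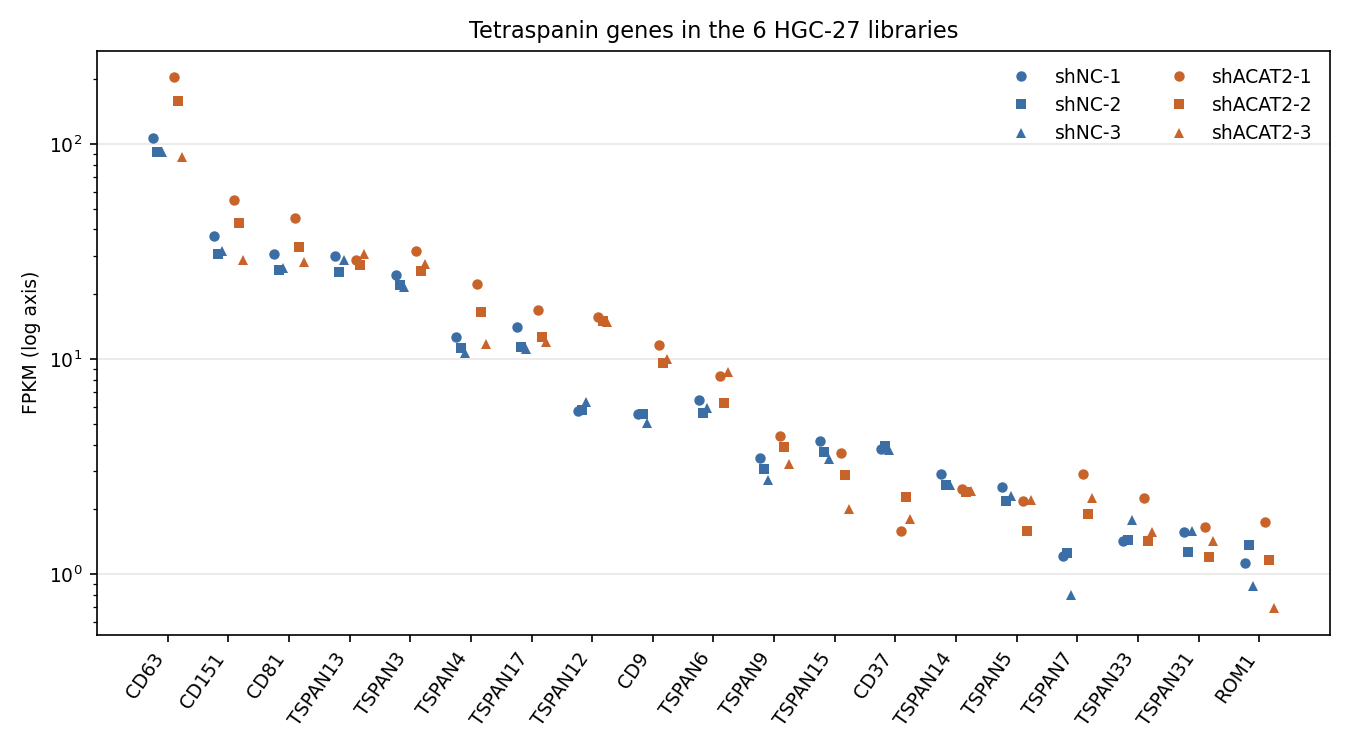
FPKM of the 19 tetraspanin genes tested, on a log axis, with 1 point per library (blue, shNC; orange, shACAT2; circles, squares and triangles, replicates 1, 2 and 3), ordered by mean level. For TSPAN12, CD9 and TSPAN7 all orange points lie above all blue ones, for CD37 all lie below, and the orange points of CD63 span 86.6 to 204 FPKM.

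The levels spanned a wide range in these cells. CD63, a protein of late endosomes and of the vesicles they release, had the highest level, 123 FPKM over all libraries, at percentile 98.3 of all genes tested. It made up 34.9 to 35.5% of the summed tetraspanin FPKM in the shNC libraries. CD151, CD81, TSPAN13 and TSPAN3 followed, with mean levels between 25.4 and 37.7 FPKM, and then TSPAN4, TSPAN17 and TSPAN12 between 10.6 and 14.2 FPKM. At the low end of the genes tested lay TSPAN33, TSPAN31 and ROM1, with 1.16 to 1.65 FPKM.

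TSPAN12 (ENSG00000106025) lies on the minus strand of GRCh38 at chr7:120787320-120858402. Its protein joins FZD4 and LRP5 in the receptor for Norrin and raises β-catenin signalling there. TSPAN12 stood at 5.74, 5.77 and 6.30 FPKM in shNC-1 to shNC-3 and at 15.7, 15.01 and 14.8 FPKM in shACAT2-1 to shACAT2-3. Each library gave between 296 and 840 fragments. The groups were far apart, and within each the libraries lay close together. Mean FPKM was 5.94 ± 0.316 (SD, n = 3) in shNC and rose to 15.2 ± 0.503 (SD, n = 3) in shACAT2, and the log2 fold change was 1.22 (SE 0.09, limma adjusted p = 0.00323). It passed the threshold in each of the 15 other analyses that were run, with limma adjusted p between 0.000788 and 0.0308. Its exons overlap those of no other annotated gene.

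The other parts of that receptor complex did not move the same way. FZD4, the Norrin receptor itself, stood at 0.912, 1.203 and 1.10 FPKM in shNC and at 0.580, 0.481 and 0.415 FPKM in shACAT2, with no overlap (log2 fold change −0.47, SE 0.14, limma adjusted p = 0.113). With limma-voom on the recovered fragments, which called 8.42% of all genes, FZD4 had a log2 fold change of −1.17 (adjusted p = 0.0124). It entered the test only through shNC, where its mean was above 1 FPKM, so a lower value in shACAT2 is no independent support. LRP5, a co-receptor of Wnt and Norrin, stood at 16.6, 14.5 and 14.3 FPKM in shNC and at 12.8, 10.8 and 9.85 FPKM in shACAT2, again with no overlap (log2 fold change −0.42, SE 0.12, limma adjusted p = 0.104). LRP5 passed the threshold in 7 of the 15 other analyses. These 7 called 5.79 to 20.5% of all genes, against 5.10% in the main analysis. Those of the 7 that took out a trend on transcript GC were added after the data were seen. Among the 7 was also the fit blocked on replicate number (adjusted p = 0.0317), in which 12.5% of all genes passed. That fit pairs the libraries by number, and the labels do not say whether they were paired. LRP6, the related co-receptor, overlapped between the groups (7.37 ± 0.996 against 5.92 ± 2.03 FPKM, limma adjusted p = 0.460). NDP, the gene of Norrin, was listed at 0 in all libraries.

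The sequences before the start sites of both called genes that were higher are shown because they differ in base composition. They are from RefSeq (GRCh38.p14), run from 250 bases before to 50 bases after an annotated start, and are printed 5′ to 3′ on the strand of the gene. Capitals mark the letters searched for: GGAATG (a core motif of TEAD factors), TGANTCA (AP-1), TCACNCCAC (SREBP), GGGCGG (SP1), CCAAT and TATAAA, each on both strands. The TSPAN12 sequence is on the minus strand at chr7:120858095-120858394, and its start is 213 bases from that of the transcript that GENCODE 29 numbers first. The CD9 sequence is on the plus strand at chr12:6200150-6200449, at the start of the transcript numbered first, one of 4 starts given for CD9.
TSPAN12: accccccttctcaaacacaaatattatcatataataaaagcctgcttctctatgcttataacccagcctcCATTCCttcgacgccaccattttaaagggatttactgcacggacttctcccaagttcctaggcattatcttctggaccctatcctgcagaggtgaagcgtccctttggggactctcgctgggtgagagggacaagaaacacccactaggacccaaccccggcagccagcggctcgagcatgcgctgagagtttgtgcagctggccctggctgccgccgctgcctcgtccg
CD9: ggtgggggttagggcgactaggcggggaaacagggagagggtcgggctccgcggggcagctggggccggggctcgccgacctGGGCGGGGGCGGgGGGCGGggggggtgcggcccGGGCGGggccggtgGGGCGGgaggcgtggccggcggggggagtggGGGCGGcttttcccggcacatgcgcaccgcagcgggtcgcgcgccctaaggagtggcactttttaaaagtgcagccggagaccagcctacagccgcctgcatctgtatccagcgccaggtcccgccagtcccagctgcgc

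The TSPAN12 sequence held 54.3% GC, 13 CpG and a single match, the TEAD letters in reverse complement (CATTCC) from position −180. The CD9 sequence held 75.7% GC, 32 CpG and 6 matches, all GGGCGG, between positions −168 and −90. Of all 35114 promoters of this length in the table, 14.03% held GGAATG and 45.0% held GGGCGG. The table gave 45 promoters for 25 of the 33 tetraspanin genes. GGAATG was in 10 of these (22.2%), GGGCGG in 27 (60.0%), CCAAT in 11 (24.4%, against 34.6% of all), TGANTCA in 3 (6.67%, against 7.71% of all) and TATAAA in 1 (2.22%, against 11.5% of all). TCACNCCAC was in none, against 1.13% of all promoters. Promoters of the same gene can overlap, so a stretch can be counted more than once in these shares. The CD63 promoters at chr12:55728303-55728602 and chr12:55728305-55728604 nearly coincide, and each was counted for GGAATG. The median was 12 CpG per tetraspanin promoter and 14 CpG over all promoters. A match is a run of letters and says nothing on whether a factor binds there.

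CD9 (ENSG00000010278, plus strand, chr12:6199715-6238271) codes for a plasma membrane tetraspanin that pairs with the immunoglobulin proteins IGSF8 and PTGFRN and acts in cell fusion and migration. It stood at 5.55, 5.54 and 5.04 FPKM in shNC and at 11.6, 9.61 and 9.98 FPKM in shACAT2, from 354 to 731 fragments per library. Every shACAT2 library lay well above every shNC library. Mean FPKM was 5.38 ± 0.292 (SD, n = 3) in shNC and rose to 10.4 ± 1.04 (SD, n = 3) in shACAT2, and the log2 fold change was 0.83 (SE 0.10, limma adjusted p = 0.00955). The call was lost without shNC-2 (adjusted p = 0.0647), without shNC-3 (adjusted p = 0.0774) and with these libraries averaged (adjusted p = 0.0664). These fits called 0.728, 0.454 and 0.600% of all genes, against 5.10% in the main analysis. The log2 fold change of CD9 stayed between 0.76 and 0.88 with any 1 library left out. No other gene overlaps its exons.

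The main partners of CD9 and CD81 overlapped between the groups. PTGFRN stood at 23.2 ± 1.93 FPKM in shNC and 23.6 ± 0.813 FPKM in shACAT2 (limma adjusted p = 0.890), and IGSF8 at 5.04 ± 1.15 and 5.32 ± 2.10 FPKM (limma adjusted p = 0.958). ITGB1, the integrin chain that CD9, CD81 and CD151 share as a partner, stood at 43.3 ± 6.38 and 45.3 ± 7.55 FPKM (limma adjusted p = 0.862). The sign of all 3 log2 fold changes turned in at least 1 other analysis.

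CD37 (ENSG00000104894, plus strand, chr19:49335171-49343335) is known from B cells and other leukocytes. It stood at 3.80, 3.93 and 3.76 FPKM in shNC and at 1.58, 2.27 and 1.81 FPKM in shACAT2, from 100 to 270 fragments per library. The shNC libraries were almost equal and all shACAT2 libraries were lower. Mean FPKM was 3.83 ± 0.0865 (SD, n = 3) in shNC and fell to 1.89 ± 0.350 (SD, n = 3) in shACAT2, and the log2 fold change was −0.75 (SE 0.11, limma adjusted p = 0.0173). The call was lost when any of shNC-1, shNC-2 and shNC-3 was left out (adjusted p = 0.0770, 0.104 and 0.103), with log2 fold changes of −0.75, −0.73 and −0.76 and with 135, 101 and 63 genes called in all. It was also lost with those last 2 libraries averaged (adjusted p = 0.0992, 83 genes called in all) and with no filter on low genes (adjusted p = 0.0655, 209 genes called in all).

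The summed level of the leukocyte markers given here did not fall with CD37, but it lay near 0 and rested mostly on CD14. The summed level of PTPRC, CD3E, MS4A1 and CD14 was 0.222 to 0.459 FPKM in shNC and 0.600 to 0.775 FPKM in shACAT2, and none of the 4 reached 1 FPKM in any library. PTPRC stood at 0.0428, 0.0471 and 0.0380 FPKM in shNC and at 0.00718, 0.0263 and 0.0727 FPKM in shACAT2. CD3E and MS4A1 were at 0 except in shACAT2-3 and so could not fall, and CD14 made up most of each sum. CD53, the related leukocyte tetraspanin, had 3, 4 and 2 fragments in shNC and 0, 0 and 4 fragments in shACAT2. Levels this near 0 cannot show whether leukocyte RNA fell with CD37, which was not tested. The CD37 exons share 319 bases (7.67% of their length) with TEAD2 and 132 bases (3.17%) with the long non-coding AC011450.1, both on the opposite strand. Whether counting used strand is not given in the sources used here, so reads of these genes may be mixed. TEAD2 stood at 12.3 ± 0.920 FPKM in shNC and 12.2 ± 3.00 FPKM in shACAT2. AC011450.1 stood at 7.22, 6.62 and 4.81 FPKM in shNC and at 3.21, 4.50 and 4.44 FPKM in shACAT2 (log2 fold change −0.51, limma adjusted p = 0.131), and its part in the CD37 values was not tested.

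**Figure D2:**
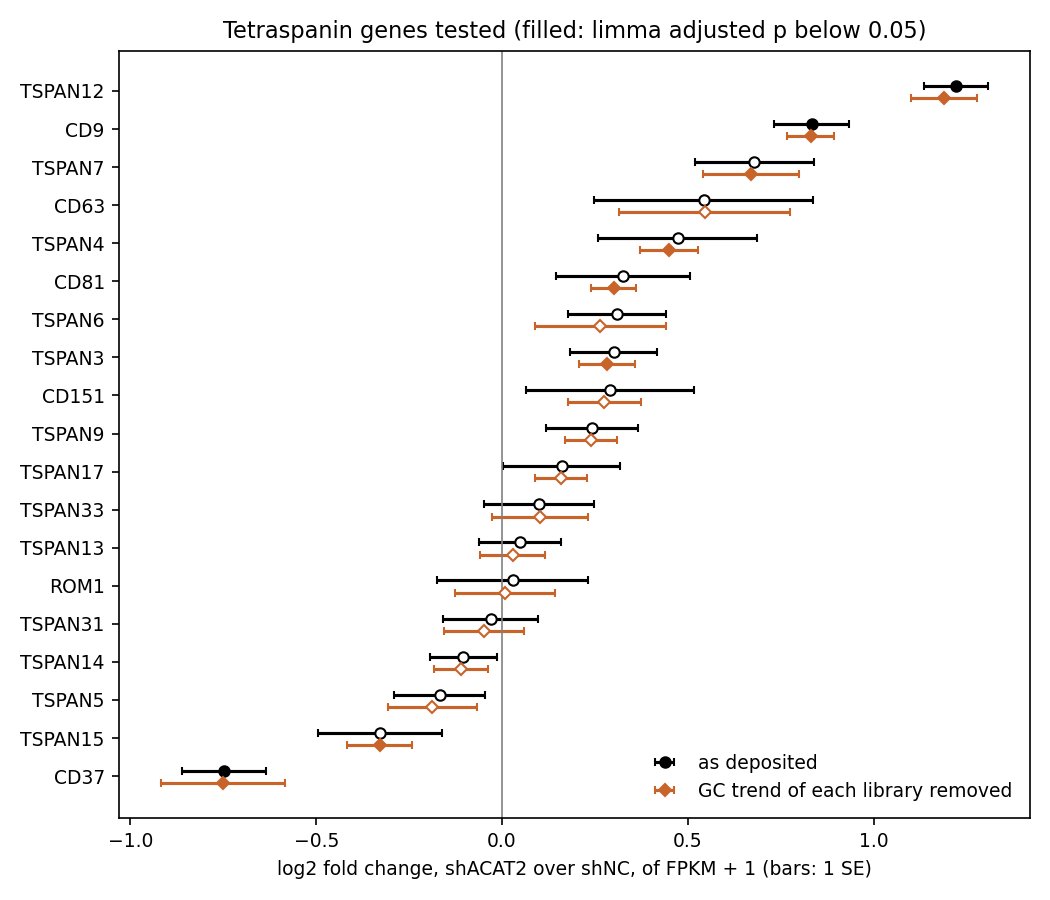
Log2 fold change, shACAT2 over shNC, of each tetraspanin gene tested, on the log2(FPKM + 1) scale, with bars of 1 SE (3 libraries per group). Black circles are the values as deposited and orange diamonds those after the GC trend of each library was removed, and filled symbols have a limma adjusted p below 0.05: TSPAN12, CD9 and CD37 in black, and those plus TSPAN7, TSPAN4, CD81, TSPAN3 and TSPAN15 in orange.

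TSPAN7 (ENSG00000156298, plus strand, chrX:38561370-38688920), best known from neurons, lay close to the threshold. It stood at 1.22, 1.25 and 0.802 FPKM in shNC and at 2.92, 1.90 and 2.25 FPKM in shACAT2, from only 43 to 138 fragments per library. It shares 676 exon bases (21.7%) with AF241726.2 on the same strand, which was listed at 0 in every library. The groups did not overlap, and the log2 fold change was 0.68 (SE 0.16, limma adjusted p = 0.0594). In a fit blocked on replicate number, TSPAN7 passed (adjusted p = 0.0481), so that 3 of 19 members were higher, where 7.67% of all genes were. It also passed with limma-voom on fragments (log2 fold change 1.06, adjusted p = 0.0298), where 8.42% of all genes passed. Of the 19 members tested, 6 had groups that did not overlap, 4 of them higher (TSPAN12, CD9, TSPAN7 and TSPAN3) and 2 lower (CD37 and TSPAN14), while 30.7% of all genes tested had such groups. TSPAN3 stood at 22.7 ± 1.58 and 28.2 ± 3.10 FPKM (limma adjusted p = 0.181) and TSPAN14 at 2.70 ± 0.194 and 2.44 ± 0.0447 FPKM (limma adjusted p = 0.544).

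Some of the most abundant tetraspanins, CD63, CD151 and CD81, and also TSPAN4, differed more among the shACAT2 libraries than between the group means. CD63 (ENSG00000135404, minus strand, chr12:55725323-55729707) stood at 106, 91.9 and 91.3 FPKM in shNC and at 204, 157 and 86.6 FPKM in shACAT2. The first and second shACAT2 libraries were above all shNC libraries, while shACAT2-3 was below them all. The log2 fold change was 0.54 (SE 0.29, limma adjusted p = 0.317), and without shACAT2-3 it was 0.89 (adjusted p = 0.0350). Fragments behind these values numbered 3422 to 8144, so counting error was small beside the spread.

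CD81, a partner of integrins, showed the same order of shACAT2 libraries. It stood at 30.8, 25.8 and 26.4 FPKM in shNC and at 45.0, 33.2 and 28.2 FPKM in shACAT2 (log2 fold change 0.33, SE 0.18, limma adjusted p = 0.324). CD151, which binds laminin-binding integrins, stood at 37.2, 30.8 and 31.7 FPKM in shNC and at 54.7, 42.7 and 28.9 FPKM in shACAT2 (log2 fold change 0.29, SE 0.23, limma adjusted p = 0.489). TSPAN4, known from migrasomes, the vesicles left behind on retraction fibres, stood at 12.7, 11.2 and 10.7 FPKM in shNC and at 22.3, 16.5 and 11.8 FPKM in shACAT2 (log2 fold change 0.47, SE 0.21, limma adjusted p = 0.239). For each of these genes shACAT2-1 was the highest library. The value of shACAT2-3 lay among the controls for CD81 and TSPAN4 and below them for CD151. CD151 and TSPAN4 lie next to each other on the plus strand of chromosome 11, 2976 bases apart with no coding gene between them. CD151 shares 257 exon bases (6.53%) with POLR2L on the opposite strand, which stood at 112, 86.9 and 38.2 FPKM in shACAT2-1 to shACAT2-3.

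Most of the members were highest in shACAT2-1. Among the shACAT2 libraries, 15 of the 19 genes tested (78.9%) were highest in shACAT2-1, as were 49.9% of all genes tested, and 9 of 19 were lowest in shACAT2-3, as were 40.1% of all. The summed level of the 33 genes was 299, 259 and 262 FPKM in shNC and 466, 368 and 280 FPKM in shACAT2, with CD63 giving 43.7, 42.7 and 30.9% of the last 3 sums. The ratio of shACAT2-1 to shACAT2-3 in FPKM was 2.51 for ROM1, 2.35 for CD63, 1.90 for CD151 and TSPAN4, 1.82 for TSPAN15 and 1.60 for CD81. It was 1.07 for TSPAN12, 1.16 for CD9 and 0.875 for CD37.

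The difference between these libraries went with the GC content of the transcripts. Over the 19 members, the difference shACAT2-1 minus shACAT2-3 in log2(FPKM + 1) correlated with the GC content of the longest annotated transcript (Pearson r = 0.694, Spearman rho = 0.686), and over 13823 genes tested it did likewise (r = 0.547, rho = 0.634). These are descriptions across genes, which share the same pair of libraries and are not independent. Transcript GC was 62.6% for CD151, 64.4% for TSPAN4 and 64.9% for CD81, and the differences were 0.90, 0.87 and 0.66. It was 41.3% for TSPAN12 and 38.6% for TSPAN6, with differences of 0.09 and −0.06. CD63 had the largest difference of the members, 1.22, at 54.7% GC, while CD37 had a difference of −0.12 at 58.5% GC.

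An analysis chosen after the data were seen took the trend on transcript GC out of each library before the test. The median size of the difference between shACAT2-1 and shACAT2-3 over the members then went from 0.27 to 0.11 on the log2 scale. The difference grew for some members, from −0.12 to −0.54 for CD37, from 0.09 to 0.26 for TSPAN12 and from −0.06 to 0.21 for TSPAN6, and the SE of the CD37 fold change rose from 0.11 to 0.17. In this fit 16.5% of all genes were called. With the trend removed, 6 of 19 members were called higher, where 9.25% of all genes were, and 2 of 19 lower, where 7.26% were. TSPAN12, CD9 and CD37 were still called (log2 fold changes 1.19, 0.83 and −0.75, limma adjusted p = 0.000874, 0.000947 and 0.0291). The newly called genes were TSPAN4 (log2 fold change 0.45, limma adjusted p = 0.0134), TSPAN7 (0.67, adjusted p = 0.0193), CD81 (0.30, adjusted p = 0.0226) and TSPAN3 (0.28, adjusted p = 0.0481), all higher, and TSPAN15 (−0.33, adjusted p = 0.0479), lower. CD63 was not called (0.55, adjusted p = 0.150), nor was CD151 (0.27, adjusted p = 0.103). The log2 fold changes of all 19 members were within 0.05 of those without the correction. The trend was estimated from the same libraries and the test does not count that estimate, so these p-values are too small by an amount that was not tested.

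**Figure D3:**
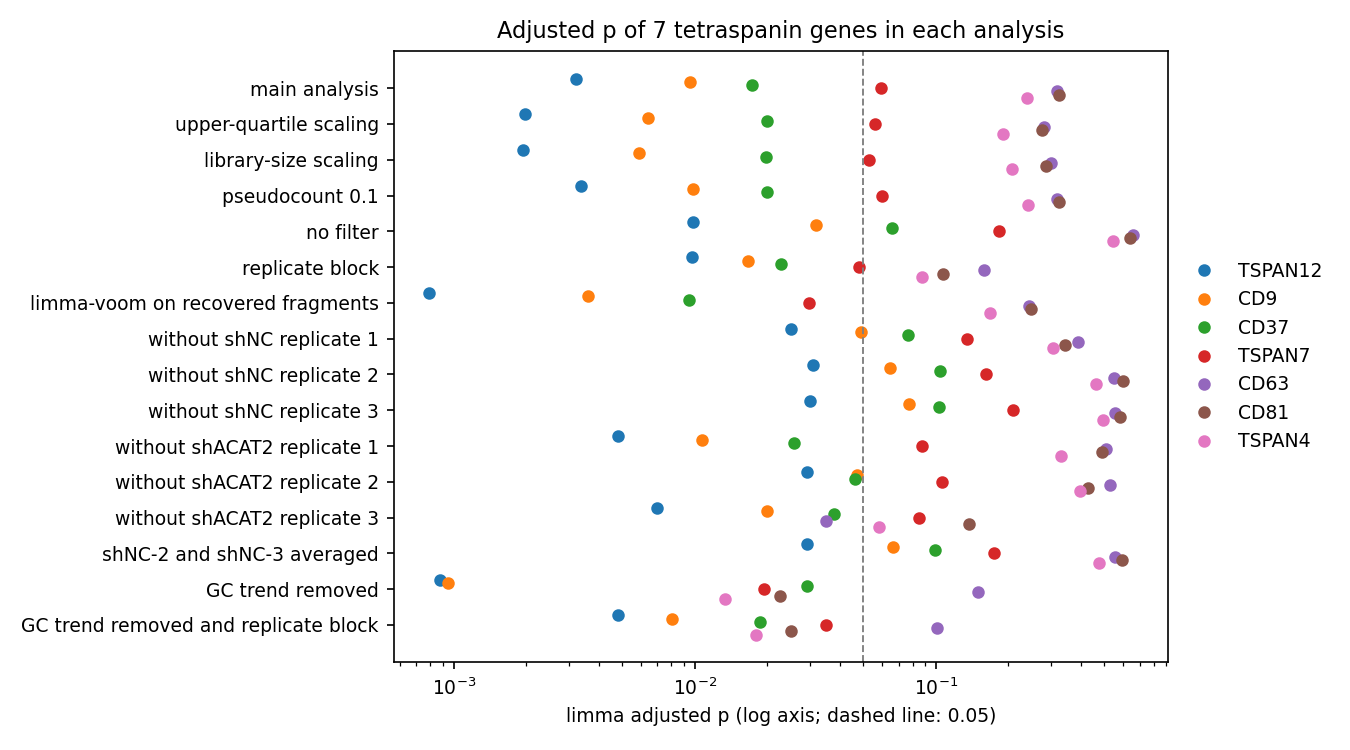
Limma adjusted p, on a log axis, of 7 tetraspanin genes (colours) in the main analysis and in each of the 15 other analyses, with the threshold of 0.05 as a dashed line. TSPAN12 lies left of the line throughout, CD9 crosses it in 3 analyses and CD37 in 5, and CD81 and TSPAN4 pass only where the GC trend was removed.

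A subfamily of tetraspanins brings ADAM10, a protease that sheds cell surface proteins, to the cell surface and steers its choice of substrate. Of its 6 members (TSPAN5, TSPAN10, TSPAN14, TSPAN15, TSPAN17 and TSPAN33), 5 were tested. None of these 5 was called, where 5.10% of all genes tested were, and their median log2 fold change was −0.10. TSPAN17 had the highest level, 12.2 ± 1.68 FPKM in shNC and 13.8 ± 2.67 FPKM in shACAT2 (limma adjusted p = 0.589). TSPAN15 stood at 4.17, 3.71 and 3.44 FPKM in shNC and at 3.66, 2.89 and 2.01 FPKM in shACAT2, with overlap of 1 shACAT2 library (log2 fold change −0.33, SE 0.17, limma adjusted p = 0.289). TSPAN5 stood at 2.35 ± 0.181 and 1.99 ± 0.350 FPKM (limma adjusted p = 0.460), and TSPAN33 at 1.55 ± 0.209 and 1.75 ± 0.441 FPKM (limma adjusted p = 0.735). ADAM10 itself stood at 3.33, 4.80 and 5.02 FPKM in shNC and at 4.58, 7.32 and 6.63 FPKM in shACAT2. Both groups were lowest in the library with number 1, and the groups overlapped (log2 fold change 0.41, SE 0.19, limma adjusted p = 0.250). In a fit blocked on replicate number, ADAM10 passed the threshold (adjusted p = 0.0358), as did 12.5% of all genes.

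The remaining genes tested overlapped between the groups. TSPAN13, the fourth in level, stood at 28.0 ± 2.53 and 28.97 ± 1.79 FPKM (limma adjusted p = 0.835). TSPAN6 stood at 5.99 ± 0.418 and 7.72 ± 1.32 FPKM (limma adjusted p = 0.216), and TSPAN9, known from platelets, at 3.08 ± 0.362 and 3.84 ± 0.583 FPKM (limma adjusted p = 0.293). TSPAN31, the neighbour of CDK4, stood at 1.48 ± 0.179 and 1.43 ± 0.222 FPKM (limma adjusted p = 0.909). It shares 1369 exon bases, 25.4% of its length, with CDK4 on the opposite strand, which had 34.4 ± 2.51 FPKM in shNC. The photoreceptor gene ROM1 stood at 1.12 ± 0.238 and 1.20 ± 0.525 FPKM (limma adjusted p = 0.949), and shares 618 exon bases (24.8%) with EML3 on the opposite strand, which had 9.96 ± 0.640 FPKM in shNC. With so much of their length under a more abundant gene and the strand setting not given, the levels of TSPAN31 and ROM1 are uncertain.

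The 14 genes below 1 FPKM were led by CD82, TSPAN32, TSPAN10 and TSPAN11. CD82, known as a suppressor of metastasis, stood at 0.806, 0.822 and 0.672 FPKM in shNC and at 1.19, 0.994 and 0.477 FPKM in shACAT2, the order of shACAT2 libraries seen for CD63. TSPAN10 stood at 0.730, 0.416 and 0.403 FPKM in shNC and at 1.32, 0.862 and 0.772 FPKM in shACAT2, with no overlap and no test. TSPAN2, known from myelinating glia, had 1, 1 and 0 fragments in shNC and 7, 16 and 8 fragments in shACAT2, also with no overlap. TSPAN32, a gene of blood cells, and TSPAN11 overlapped, with 0.492 to 1.09 and 0.423 to 0.722 FPKM. TSPAN18, TSPAN16, UPK1A, TSPAN19, CD53, TSPAN1, PRPH2 and UPK1B had at most 14 fragments in any library, and TSPAN8 was listed at 0 in all. Of the 14 genes, 6 were highest in shACAT2-3, the library with fragments on the most genes.

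Partners were described with a list of 35 genes of proteins known to bind tetraspanins. Of these, 24 were tested, 2 were called higher with limma, where 3.30% of all genes were, and none lower. An unadjusted p below 0.05 was found for 7 of the 24 and for 23.5% of all genes, and the median log2 fold change was 0.03. CD44, the hyaluronan receptor, stood at 3.66, 3.26 and 3.35 FPKM in shNC and at 6.93, 7.10 and 7.21 FPKM in shACAT2. The groups were far apart, and the log2 fold change was 0.87 (SE 0.08, limma adjusted p = 0.00483). ITGA3, the laminin-binding integrin chain that pairs with CD151, stood at 1.63, 1.70 and 1.66 FPKM in shNC and at 3.41, 2.99 and 2.71 FPKM in shACAT2. It did not overlap either (log2 fold change 0.60, SE 0.10, limma adjusted p = 0.0270). The call was lost without any single shNC library (adjusted p = 0.0979, 0.130 and 0.136 without replicates 1, 2 and 3) and without shACAT2-2 (adjusted p = 0.103). It was also lost with the closest shNC libraries averaged (adjusted p = 0.128) and with no filter (adjusted p = 0.0948). Each of these fits called between 0.454 and 0.970% of all genes, against 5.10% in the main analysis. With the block on replicate number 5 of the 24 were called, in a fit that called 1727 genes or 12.5% of all, against 706 without it. This adds LRP5, ADAM10 and the palmitoyl transferase gene ZDHHC2 (log2 fold change 0.31, adjusted p = 0.0448), the last named after its values were seen.

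The second list held 43 genes of vesicle and multivesicular body formation, the route by which CD63 leaves the cell. Of these, 38 were tested with limma and none was called, where 5.10% of all genes were. An unadjusted p below 0.05 was found for 7 of the 38, a smaller share than the 23.5% of all genes, and the median log2 fold change was 0.10. With limma-voom none was called either, where 8.42% of all genes were. With the block on replicate number 5 of the 38 were called, close to the 12.5% of all genes called in that fit. They are named here after their values were seen: LAMP2, CHMP5, CHMP4B and SDCBP higher and CHMP2B lower. LAMP2, a lysosomal membrane protein, stood at 20.4 ± 1.82 FPKM in shNC and 28.5 ± 2.51 FPKM in shACAT2 (limma adjusted p = 0.0699, and 0.0251 with the block). CHMP5, of the machinery that cuts vesicles into endosomes, stood at 23.2 ± 1.25 and 31.0 ± 1.33 FPKM (limma adjusted p = 0.0628, and 0.0341 with the block), and CHMP2B, of the same machinery, at 5.41 ± 0.516 and 3.88 ± 0.0875 FPKM (limma adjusted p = 0.0624, and 0.0475 with the block).

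Markers of other cell types were compared beside these results. The fibroblast markers COL1A1, DCN and PDGFRB summed to 66.5 to 76.0 FPKM in shNC and 122 to 153 FPKM in shACAT2, with COL1A1 at 57.9 to 139 FPKM, and the mesenchymal marker VIM stood at 246 to 292 FPKM in shNC and 340 to 461 FPKM in shACAT2, while CDH2 reached at most 0.0808 FPKM. COL1A1, DCN and VIM, like TSPAN12 and CD9, were higher in every shACAT2 library than in any shNC library. The same held for 2239 of the 13832 genes tested. PDGFRB overlapped between the groups (0.553 to 0.815 FPKM in shNC and 0.792 to 1.12 FPKM in shACAT2). The part of these markers in the TSPAN12 and CD9 differences was not tested. The endothelial markers PECAM1 and CDH5 were at 0 except in shACAT2-3, where they summed to 0.116 FPKM. Markers of urothelium summed to at most 0.986 FPKM and those of photoreceptors to at most 0.0794 FPKM, beside UPK1A, UPK1B and PRPH2 near 0.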

How the data were processed

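The deposited table holds FPKM values that the authors computed, for 58735 genes and 6 libraries (3 shNC, 3 shACAT2). The submitters' processing notes name HISAT2 2.0.5, featureCounts 1.5.0-p3, DESeq2 1.20.0 and hg38, with no roles, and the strand setting and the FPKM denominator are not given in the sources used here. Groups and replicate numbers came from the sample titles. No per-sample column was left unused. Each value multiplied by gene length is a multiple of 1 step per library, estimated from the low values, and divided by it 100% of the values were whole numbers of fragments (tolerance 0.1). The denominator recovered from that step was 0.957 (shACAT2-1) to 1.07 (shNC-2) times the fragments on genes, so it was not that total.

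Genes whose mean in shNC or shACAT2 reached 1 FPKM were tested with limma 3.58.1 (R 4.3.3, lmFit and eBayes with a trend, two-sided) on log2(FPKM + 1) with Benjamini-Hochberg adjustment over all 13832 genes, and called at an adjusted p below 0.05. The script was tested on simulated data. Python 3.11.15, numpy 2.4.6 and pandas 2.3.3 served the other steps. Gene positions, exon overlaps and transcript GC were from GENCODE 29 (GRCh38). Every tetraspanin gene is named. From the partner and vesicle lists the rule named the genes called plus FZD4, LRP5, LRP6, NDP, ADAM10, IGSF8, PTGFRN and ITGB1. One marker gene of the leukocyte list is not reported here. The members and lists were chosen with earlier results of these data known.

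Deviations of same-numbered libraries from their group means correlated at 0.445, 0.126 and 0.171, all above 0.1. On that basis the blocked fit treated the libraries as paired by number, which the labels do not state. Only the value of 0.445 set same-numbered libraries apart, since shNC-2 with shACAT2-3 gave 0.198 and shNC-3 with shACAT2-2 gave 0.141. The deviations within a group are not independent of one another, so these values cannot show that the libraries were paired. Libraries 2 and 3 of shNC were much closer to one another than any other replicates. The chi-square of fragments per gene was 1.71 between them and 10.8 to 39.3 between other libraries of the same group. Their difference exceeded sampling noise, and both were kept. The calls of CD9 and CD37 were lost when these libraries were averaged, where 0.600% of all genes were called.

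Other analyses used upper-quartile scaling, scaling to library size, a pseudocount of 0.1, no filter, the replicate block, limma-voom on recovered fragments, shNC-2 and shNC-3 averaged, each library left out, and an unadjusted threshold. The removal of a lowess trend on transcript GC from each library, with and without the block, was added after seeing the data.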

Additional observations from a re-analysis of the deposited data

How the results depend on the processing

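Of the 285 refits of the 19 tetraspanin genes tested, 252 kept the direction and the side of the threshold, 8 lost a call (CD9 and CD37), 13 gained one and 12 changed sign. The count of higher tetraspanin genes, 2 in the main analysis, was 1 with shNC-2 and shNC-3 averaged, 1 under the fold and unadjusted p threshold, 6 with the GC trend removed, 6 with that trend removed and the replicate block, and 1 to 3 with 1 library left out. The count of lower genes, 1 in the main analysis, was 0 with no filter, 0 with those libraries averaged, 0 under the fold threshold, 2 with the GC trend removed with or without the block, and 0 to 1 with 1 library left out. Partner genes called, 2 in the main analysis, numbered 1 with no filter, 1 with the libraries averaged, 4 with limma-voom, 5 with the replicate block, 6 with the GC trend removed, 8 with that trend removed and the block, and 1 to 3 with 1 library left out. Vesicle genes called, 0 in the main analysis, numbered 5 with the replicate block, 7 with the GC trend removed, 8 with both, and 0 to 1 with 1 library left out. Of all genes, 5.10% were called in the main analysis, 12.5% with the block, 16.5% with the GC trend removed and 20.5% with both, and 63 to 135 genes without an shNC library. The replicate block pairs the libraries by number, which the labels do not state. Among the tetraspanins and the genes of both lists, it changed no call but those of TSPAN7, LRP5, ADAM10 and the listed genes named in the report. The log2 fold change of ACAT2 stayed between −1.07 and −0.94 with 1 library left out, and its limma adjusted p was 0.0512 without shNC-3. The cause of these changes was not tested, beyond the smaller number of libraries or genes in some fits.

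Among the members tested and the 9 partner genes refitted singly, signs turned for TSPAN13, TSPAN33, TSPAN31, ROM1, IGSF8, PTGFRN and ITGB1. With upper-quartile scaling, library-size scaling and limma-voom in that order, the log2 fold change was −0.0099, −0.0038 and −0.0056 for TSPAN13, −0.0100, −0.0051 and −0.0102 for ROM1, −0.022, −0.016 and −0.017 for IGSF8, and −0.027, −0.021 and −0.023 for PTGFRN. With shNC-2 and shNC-3 averaged it was −0.044 for IGSF8 and −0.0012 for PTGFRN. With 1 library left out it ranged from −0.024 to 0.099 for TSPAN13, −0.028 to 0.185 for TSPAN33, −0.097 to 0.036 for TSPAN31, −0.145 to 0.202 for ROM1, −0.212 to 0.274 for IGSF8, −0.024 to 0.090 for PTGFRN and −0.060 to 0.198 for ITGB1. Depth limits the members under 1 FPKM, where intervals would cover counting error only.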
